A study of Mus musculus with 15 samples.

Results

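A set of 9 genes in glucose production, glucose sensing and glycogen turnover, of the 17527 genes in the deposited expression table, was followed in 15 mouse liver RNA sequencing libraries. The 9 genes were G6pc, Pck1, Fbp1, Gckr, Gys2, Pygl, Slc2a2, Ppp1r3b and Ppp1r3c, and they were taken by symbol. All 9 were present in the table and all 9 passed the filter on low values used for testing, a mean of at least 1 FPKM (fragment counts scaled to transcript length and library size). The libraries fell into 3 groups of 5. Control mice had a diet that the labels do not describe. Model mice received a high-fat, high-sucrose feed for 20 weeks to bring about nonalcoholic steatohepatitis, a fatty liver with inflammation. Fat supplied 60% of the energy in that feed, protein 20% and carbohydrate 20%, cholesterol made up 0.2%, and the drinking water held 42 g/L sugar, of which 55% was sucrose and 45% fructose by weight. BBBPH mice had the same feed and water and from week 12 also received Biotransformed Bear Bile Powder by mouth at 150 mg/kg each day, whereas model mice received saline. The dosed group numbered 14 mice, of which 5 libraries are described here. The labels used here give no strain, sex or age, no fasting state and no hour of killing, and do not say whether 1 library stands for 1 mouse, so p-values measure the spread between these libraries.

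The liver keeps blood glucose up between meals by releasing glucose from glycogen and by making it from lactate, glycerol and amino acids. Pck1 and Fbp1 catalyse committed steps of that synthesis, and G6pc removes the phosphate from glucose 6-phosphate at the last step, which new glucose and glycogen-derived glucose share. After a meal glucose enters through Slc2a2, is phosphorylated under the restraint of the protein encoded by Gckr, and is stored by the glycogen synthase Gys2, while the phosphorylase Pygl degrades the store and the Ppp1r3 proteins bring a phosphatase to glycogen. Glucagon and fasting are known to raise Pck1 and G6pc transcription and insulin to lower it.

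Promoter sequences of the 3 genes that moved most in these data and have an entry in the RefSeq table of gene starts are given here, since hormone-responsive elements of 2 of them are textbook examples. Each is the 250 bases before the RefSeq start on GRCm38.p6, read 5′ to 3′ on the strand of the gene. The G6pc window lies at chr11:101367466-101367715 on the plus strand, Pck1 at chr2:173152823-173153072 on the plus strand and Ppp1r3c at chr19:36736605-36736854 on the minus strand. Capitals mark matches to the core of a cAMP response element (ACGTCA), a D-box (TTACGTAA), an E-box (CACGTG) or the core of an insulin response sequence (TGTTTTG).
G6pc: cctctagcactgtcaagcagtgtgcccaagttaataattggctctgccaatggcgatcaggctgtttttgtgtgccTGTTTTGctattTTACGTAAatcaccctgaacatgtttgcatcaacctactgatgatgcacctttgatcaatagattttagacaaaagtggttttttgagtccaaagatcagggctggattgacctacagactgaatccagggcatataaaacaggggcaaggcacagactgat
Pck1: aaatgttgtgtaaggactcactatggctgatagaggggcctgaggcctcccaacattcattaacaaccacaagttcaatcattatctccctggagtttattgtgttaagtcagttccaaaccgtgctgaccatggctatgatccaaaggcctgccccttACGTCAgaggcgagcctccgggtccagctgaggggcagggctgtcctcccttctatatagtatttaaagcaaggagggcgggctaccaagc
Ppp1r3c: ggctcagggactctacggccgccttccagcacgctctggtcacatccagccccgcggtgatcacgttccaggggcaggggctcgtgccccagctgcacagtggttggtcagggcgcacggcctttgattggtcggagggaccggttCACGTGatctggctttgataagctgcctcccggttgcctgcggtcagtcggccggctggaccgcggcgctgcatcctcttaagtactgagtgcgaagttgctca

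The G6pc window held TGTTTTG from -174 to -168 and TTACGTAA from -162 to -155, counted back from the RefSeq start. It also held TATAAA from -29 to -24 and, on the minus strand, the nuclear receptor half-site AGGTCA from -54 to -49, both left in lower case. The Pck1 window held ACGTCA from -91 to -86, and the Ppp1r3c window held CACGTG from -104 to -99. GENCODE, whose gene spans are given below, starts the 3 genes farther upstream, by 155 bases for G6pc, 25 for Pck1 and 49 for Ppp1r3c, so the end of each window lies inside the GENCODE gene and the distances hold for the RefSeq start only. Of the other members with a window, Gckr held TGTTTTG, Pygl and Slc2a2 each held AGGTCA, and Fbp1 held none of the 7 motifs searched. The starts coincide for Fbp1 and Slc2a2, while GENCODE starts Gckr 120 bases upstream and Pygl 3805 bases upstream, which puts the whole Pygl window inside its GENCODE gene. Those were the 4 above together with AGGTCA, the TATA-box letters TATAAA and the forkhead core GTAAACA, read on both strands and chosen after the sequences were seen, and no marked match overlapped another. Of 32851 RefSeq windows of this length, 6.47% held ACGTCA, 0.113% TTACGTAA, 6.02% CACGTG and 5.56% TGTTTTG. The corresponding shares were 14.0% for AGGTCA, 12.4% for TATAAA and 3.17% for GTAAACA. A match describes letters only, and factor binding was not measured in these libraries. In all, 7 of the 9 members had a window.

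Library depth, read back from the values, ran from 35395712 to 39624160 fragments, so that each member rested on at least 186 fragments in every library (the lowest being Ppp1r3c). By genes outside the set, 3 libraries stood apart. BBBPH 2_2 had 978 FPKM of the pancreatic gene Ctrb1 against at most 0.905 in the other 14, the acute-phase transcript Saa2 reached 14965 FPKM in model 1_4 where its group otherwise had 61.6 to 194, and control 2_1 had 70.0 FPKM of the muscle gene Tnnt3 against at most 0.145. The tissue label was checked against 9 hepatocyte markers, which summed to 63347 to 72562 FPKM in control livers, 40110 to 58570 in model and 57867 to 68921 in BBBPH libraries. With 2865 genes higher and 827 lower in model than control, the median of all 9575 tested genes stood at 0.12 on the log2 scale, and with 2337 higher and 354 lower in BBBPH than control it stood at 0.13. Median-ratio scaling, which divides each library by the median ratio of its genes to their mean level, brought both medians to 0.00 and the splits to 1618 higher against 1669 lower and to 781 higher against 879 lower.

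In model livers 2 of the 9 genes rose (Ppp1r3c and Ppp1r3b), 3 fell (Gys2, Pck1 and G6pc) and 4 did not pass the test. Among all tested genes, 29.9% rose and 8.64% fell in that comparison, 38.6% in either direction. In BBBPH livers against model livers 2 rose, Gys2 and G6pc, the remaining 7 did not pass, and no member fell by limma's test, by the same test at an unadjusted p under 0.05 or by limma's voom on recovered fragments. The background there was 14.2% rising and 12.2% falling, 26.5% in all. Against control, BBBPH livers had 2 genes higher (Ppp1r3c and Pygl), 1 lower (Pck1) and 6 that did not pass, where 24.4% of all tested genes were higher and 3.70% lower, 28.1% in all. The counts were the same without BBBPH 2_2 and model 1_4 and without control 2_1 besides. The 3 comparisons share libraries, so their values are set side by side and not counted as independent. The median difference of the 9 genes was -0.15 in model against control, 0.13 for BBBPH over model and 0.10 for BBBPH over control, beside 0.12, 0.02 and 0.13 for all tested genes.

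**Figure D1:**
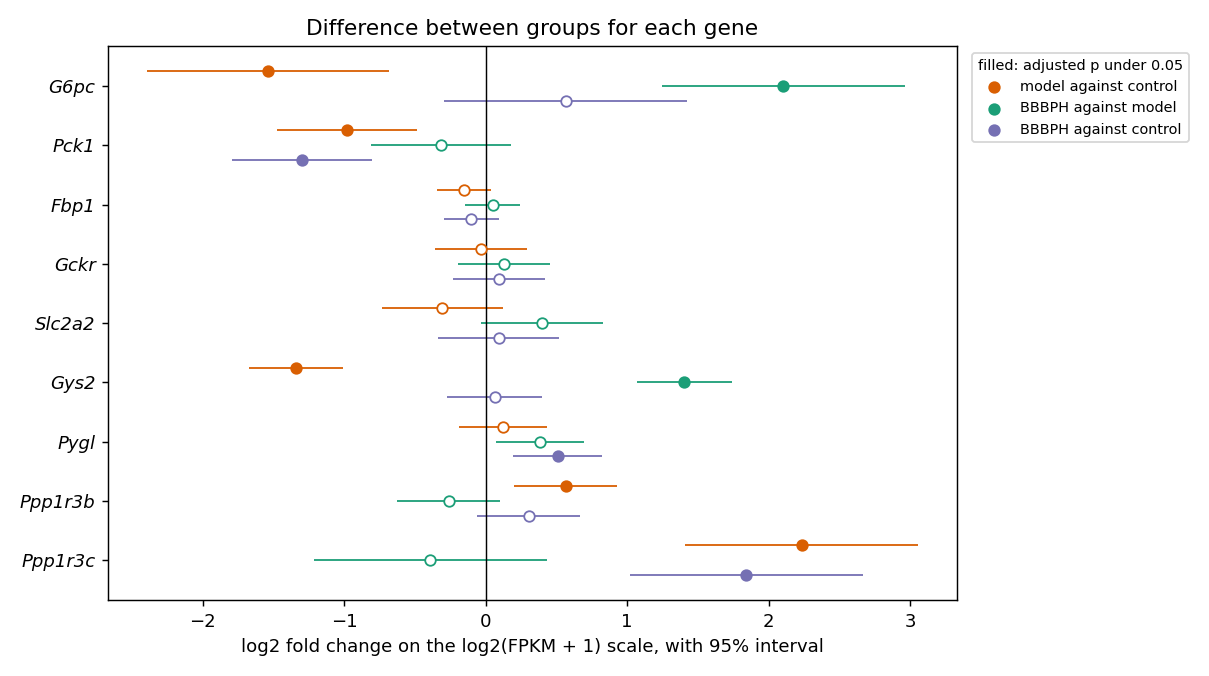
Differences between groups for the 9 genes, as log2 fold change on the log2(FPKM + 1) scale (horizontal axis) with 95% intervals, for model against control (orange), BBBPH against model (green) and BBBPH against control (violet); filled points have an adjusted p under 0.05. Gys2 and G6pc lie left of 0 in orange and right of 0 in green, Pck1 lies left of 0 in orange and violet, and Ppp1r3c lies right of 0 in orange and violet.

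In control livers the gene level ran from Pck1 at 1253 ± 173 FPKM down to Ppp1r3c at 3.74 ± 1.43 (SD, n = 5). Fbp1 came after Pck1 without overlap, at 659 ± 50.6 FPKM. Pygl, G6pc, Slc2a2 and Gys2 followed with means from 134 to 148 FPKM and overlapping ranges, then Gckr at 39.8 ± 4.95 and Ppp1r3b at 37.7 ± 6.17, which also overlapped. In model livers Pck1 (651 ± 189 FPKM) and Fbp1 (593 ± 55.3 FPKM) were no longer apart, and Slc2a2 (112 ± 19.7 FPKM) was followed by G6pc (61.7 ± 41.0), Ppp1r3b (57.1 ± 14.3) and Gys2 (52.5 ± 10.6), whose ranges overlapped. In BBBPH livers Fbp1 (615 ± 67.2 FPKM) and Pck1 (534 ± 202 FPKM) again overlapped, and G6pc at 220.3 ± 59.1 FPKM stood beside Pygl at 214 ± 47.3. Ppp1r3c had the lowest mean of the 9 in all 3 groups.

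**Figure D2:**
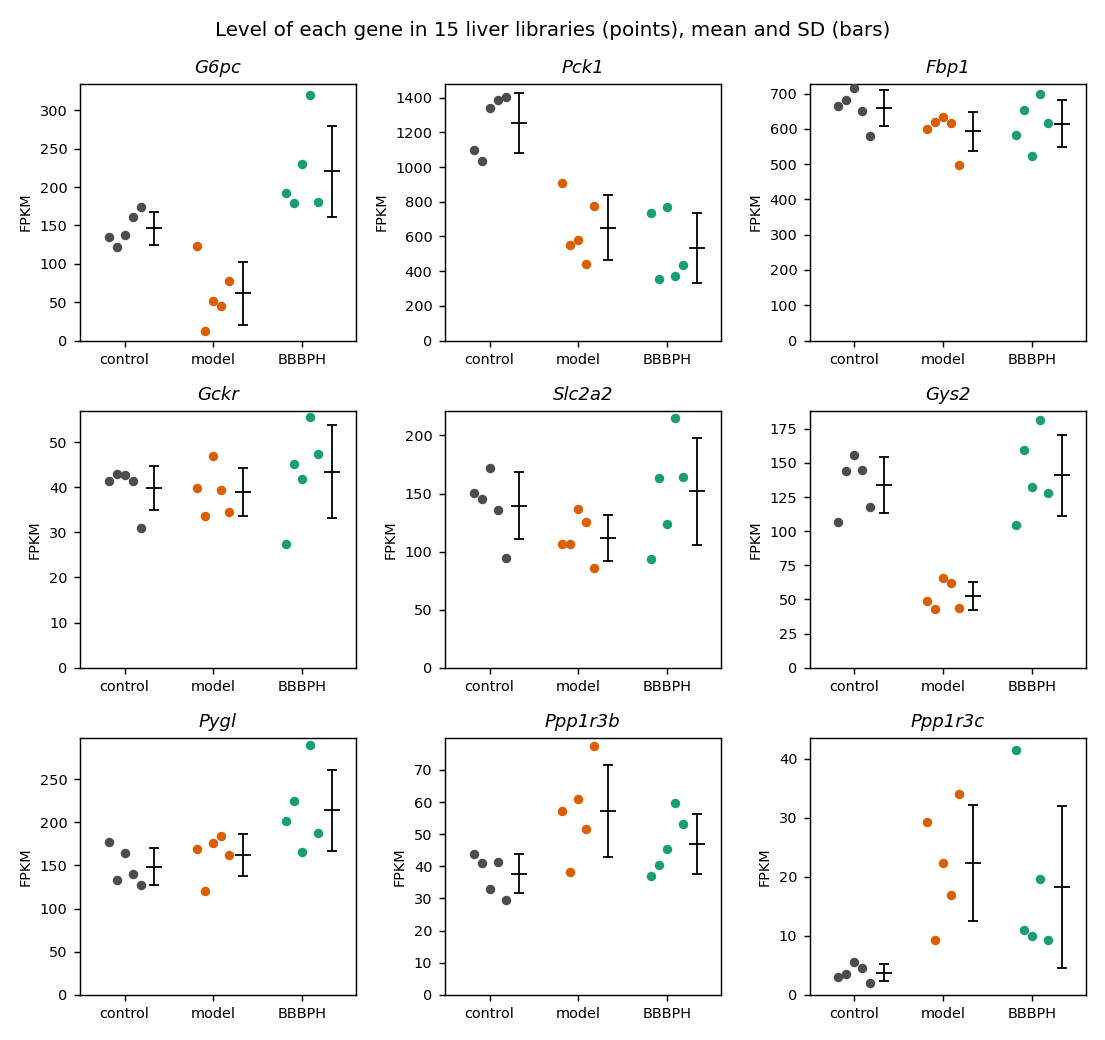
Level of each of the 9 genes (FPKM, vertical axes from 0) in the 5 control, 5 model and 5 BBBPH libraries; points are libraries in label order and bars give the mean and SD. The 5 model points of Gys2 lie below those of both other groups, and the 5 control points of Ppp1r3c lie below those of both other groups.

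G6pc encodes the catalytic subunit of glucose 6-phosphatase and spans 101367561 to 101377903 on chromosome 11 (GRCm38, plus strand, 5 exons). Control libraries 1_1, 1_5, 2_1, 2_2 and 3_4 had 135, 122, 138, 161 and 175 FPKM. Model libraries 1_1, 1_4, 2_1, 2_3 and 3_4 had 123, 12.8, 51.0, 44.9 and 77.1 FPKM, and BBBPH libraries 2_1, 2_2, 3_1, 3_2 and 3_4 had 192, 179.7, 230.2, 319 and 181 FPKM. Model 1_4 was the lowest of all 15, model 1_1 reached into the control range, and every BBBPH library lay above every control and model library. G6pc fell in model livers, with a log2 difference of -1.54 (SE 0.40, 95% interval -2.40 to -0.68, adjusted p = 0.00759) in limma's test over all tested genes on the log2(FPKM + 1) scale, the scale of every log2 difference below, and an exact 2-sided permutation p of 0.0159. It rose in BBBPH against model livers (log2 difference 2.10, SE 0.40, 95% interval 1.25 to 2.96, adjusted p = 0.00143), a ratio of means of 3.57, with an exact p of 0.00794, the smallest that 5 against 5 libraries allow. Without model 1_4 the log2 differences were -1.07 (adjusted p = 0.00411) and 1.64 (adjusted p = 0.000363). BBBPH against control gave 0.57 (95% interval -0.29 to 1.42, adjusted p = 0.304) while the groups did not overlap (exact p = 0.00794), and a fit of those groups alone gave an adjusted p of 0.0242. In bulk tissue, fewer cells that express a gene and less of its RNA per cell cannot be told apart, for G6pc and for every gene below.

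Slc37a4, the transporter that feeds glucose 6-phosphate to G6pc, had 49.4 ± 15.5 FPKM in control livers, 36.0 ± 6.83 in model and 63.8 ± 15.5 in BBBPH livers. It rose in BBBPH against model (log2 difference 0.80, adjusted p = 0.0163) and no longer passed without BBBPH 2_2 and model 1_4.

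Pck1 encodes the cytosolic phosphoenolpyruvate carboxykinase, which opens glucose synthesis from oxaloacetate (chromosome 2, 173153048 to 173159273, plus strand, 10 exons). Its levels in library order were 1098, 1037, 1339.8, 1388 and 1404 FPKM in control livers, 909.9, 549, 579, 439 and 775 FPKM in model and 737, 356, 769, 375 and 435 FPKM in BBBPH. All 10 libraries on the high-fat feed lay below all 5 control libraries, while model and BBBPH libraries were interspersed. Pck1 fell in model livers (log2 difference -0.98, SE 0.23, 95% interval -1.48 to -0.49, adjusted p = 0.00407), with an exact permutation p of 0.00794. Against control it was lower in BBBPH livers (log2 difference -1.30, SE 0.23, 95% interval -1.79 to -0.80, adjusted p = 0.00143), again with an exact p of 0.00794. The difference between BBBPH and model was -0.32 (95% interval -0.81 to 0.18, adjusted p = 0.340).

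Pck1 and G6pc, both induced by fasting, were lower in model than control, but in BBBPH libraries a high G6pc stood beside a low Pck1. BBBPH 3_2 had the highest G6pc of the 15 libraries (319 FPKM) with only 375 FPKM of Pck1, and BBBPH 2_2 had the lowest Pck1 (356 FPKM) with 179.7 FPKM of G6pc. The contrast was weaker in BBBPH 3_1 and 2_1, where G6pc of 230.2 and 192 FPKM stood beside Pck1 of 769 and 737 FPKM. Those Pck1 levels lay below every control library and inside the model range. The mitochondrial isoenzyme Pck2 was far lower in level, at 1.31 ± 0.234 FPKM in control livers, 0.953 ± 0.229 in model and 2.36 ± 0.574 in BBBPH. Pck2 rose in BBBPH livers against model (log2 difference 0.77, adjusted p = 0.000215) and against control (log2 difference 0.53, adjusted p = 0.00441). The ratio of Pck1 to Pck2 within a library ranged over 809.8 to 1410.4 in control, 341 to 1362 in model and 112 to 407 in BBBPH libraries. BBBPH and control did not overlap in that ratio, which was not tested.

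**Figure D3:**
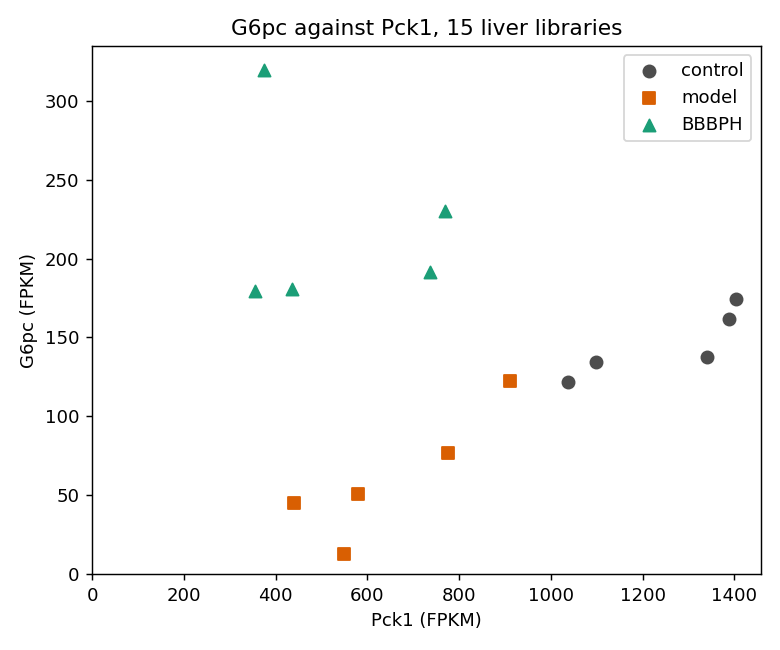
Level of G6pc (vertical, FPKM) against Pck1 (horizontal, FPKM) in each of the 15 libraries, by group. Control points lie at high Pck1, model points at lower Pck1 and, in 4 of 5 libraries, G6pc below every control, and BBBPH points combine 356 to 769 FPKM of Pck1 with 179.7 to 319 FPKM of G6pc.

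Fbp1, the fructose 1,6-bisphosphatase of liver (chromosome 13, 62864753 to 62888282, minus strand, 7 exons), had 665, 682, 717, 650.0 and 580.2 FPKM in control libraries. Model libraries had 599.6, 619, 634, 616 and 497 FPKM and BBBPH libraries 582, 654, 524, 699 and 617 FPKM. The groups overlapped in every pairing, and model 3_4 lay below its group. The log2 differences were -0.15 (95% interval -0.35 to 0.04, adjusted p = 0.196) for model over control, 0.05 (95% interval -0.14 to 0.24, adjusted p = 0.724) for BBBPH over model and -0.10 (95% interval -0.30 to 0.09, adjusted p = 0.413) for BBBPH over control. Under median-ratio scaling Fbp1 passed the test as lower than control in model livers (-0.29, adjusted p = 0.0132) and in BBBPH livers (-0.26, adjusted p = 0.0417). Its counterpart in glycolysis, the phosphofructokinase Pfkl, rose in model livers (log2 difference 0.33, adjusted p = 0.00500) and was higher in BBBPH than control (log2 difference 0.39, adjusted p = 0.00342). The Fbp1 to Pfkl ratio was 79.2 to 98.1 in control libraries, above the 55.7 to 62.9 of model and the 47.6 to 70.5 of BBBPH libraries without overlap.

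Slc2a2 encodes GLUT2, the glucose transporter of the hepatocyte membrane (chromosome 3, 28697903 to 28731359, plus strand, 11 exons). Control libraries had 151, 145, 172, 136 and 94.6 FPKM, model libraries 106, 106, 137, 125 and 85.5 and BBBPH libraries 93.2, 163, 124, 215 and 165. BBBPH 3_2 was the highest and model 3_4 the lowest of all, and all groups overlapped. No comparison passed the test, with differences of -0.31 (95% interval -0.74 to 0.12, adjusted p = 0.240) for model over control, 0.40 (95% interval -0.03 to 0.83, adjusted p = 0.161) for BBBPH over model and 0.09 (95% interval -0.34 to 0.52, adjusted p = 0.756) for BBBPH over control. Leaving out BBBPH 2_1 brought BBBPH against model to 0.56 with an adjusted p of 0.0350. An annotated antisense gene overlaps Slc2a2 and the strand setting of the counting is not given in the sources used here, so its reads could not be separated.

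Gckr encodes a regulatory protein that restrains glucose phosphorylation in hepatocytes (chromosome 5, 31297443 to 31327314, plus strand, 19 exons). It had 41.3, 42.8, 42.6, 41.3 and 31.1 FPKM in control livers, 39.9, 33.5, 46.9, 39.5 and 34.5 in model and 27.4, 45.1, 41.7, 55.5 and 47.4 in BBBPH libraries. Control 3_4 and BBBPH 2_1 were the lowest and BBBPH 3_2 the highest, with all groups overlapping. The differences were -0.03 (95% interval -0.36 to 0.29, adjusted p = 0.876), 0.13 (95% interval -0.19 to 0.46, adjusted p = 0.567) and 0.10 (95% interval -0.23 to 0.42, adjusted p = 0.658) in the same order of comparisons.

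Gys2 encodes the liver glycogen synthase (chromosome 6, 142422613 to 142473109, minus strand, 17 exons). Control libraries had 107, 144, 156, 145 and 117 FPKM and model libraries 48.7, 42.8, 65.5, 62.0 and 43.6 FPKM. BBBPH libraries had 105, 159, 132, 181 and 128 FPKM. Every model library lay below every control and BBBPH library, and control and BBBPH libraries overlapped. Gys2 fell in model livers (log2 difference -1.34, SE 0.16, 95% interval -1.68 to -1.01, adjusted p = 2.45e-05), from 134 ± 20.8 to 52.5 ± 10.6 FPKM (SD, n = 5), with an exact permutation p of 0.00794. In BBBPH livers it rose to 141 ± 29.6 FPKM (log2 difference 1.40, SE 0.16, 95% interval 1.07 to 1.74, adjusted p = 2.60e-05) against model, a ratio of means of 2.69 (exact p = 0.00794). BBBPH against control was 0.06 (95% interval -0.27 to 0.40, adjusted p = 0.781). Gys2 was the member with the smallest adjusted p in both comparisons with the model group.

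Pygl, the liver glycogen phosphorylase (chromosome 12, 70190811 to 70231488, minus strand, 20 exons), had 177, 133, 165, 139.8 and 128 FPKM in control and 169, 120.4, 176, 184 and 162 in model libraries. BBBPH libraries had 201, 225, 166, 289 and 188 FPKM, with BBBPH 3_2 the highest of all and BBBPH 3_1 inside the control range. In model against control the log2 difference of Pygl was 0.12 (95% interval -0.19 to 0.44, adjusted p = 0.523). It was higher in BBBPH than control (log2 difference 0.51, SE 0.15, 95% interval 0.20 to 0.82, adjusted p = 0.0191), with an exact p of 0.0159. That call did not hold without BBBPH 3_2 (0.39, adjusted p = 0.0512) or under median-ratio scaling (0.35, adjusted p = 0.0932). Against model the difference was 0.38 (SE 0.15, 95% interval 0.07 to 0.70, adjusted p = 0.0656), with an exact p of 0.0397, and it passed at an adjusted p of 0.0324 without BBBPH 3_1. A long noncoding gene on the other strand overlaps Pygl.

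The balance of synthase to phosphorylase transcript differed across groups. The Gys2 to Pygl ratio was 0.602, 1.08, 0.947, 1.04 and 0.919 in control libraries, 0.288, 0.356, 0.372, 0.338 and 0.269 in model libraries and 0.519, 0.708, 0.799, 0.626 and 0.682 in BBBPH libraries. Model libraries did not overlap either other group. BBBPH overlapped control, with means of 0.667 ± 0.103 and 0.918 ± 0.189 (SD, n = 5). Ratios are given as descriptions with no test.

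Ppp1r3b encodes the hepatic glycogen-targeting subunit of protein phosphatase 1, which brings the phosphatase that activates glycogen synthase to glycogen (chromosome 8, 35375739 to 35388139, plus strand, 2 exons). Its levels were 43.9, 41.2, 32.8, 41.2 and 29.6 FPKM in control livers, 57.2, 38.3, 61.1, 51.7 and 77.5 in model and 37.0, 40.3, 45.2, 59.8 and 53.0 in BBBPH libraries. Model 3_4 was the highest of all, and model 1_4 lay inside the control range. Ppp1r3b rose in model livers (log2 difference 0.57, SE 0.17, 95% interval 0.20 to 0.93, adjusted p = 0.0167), with an exact permutation p of 0.0317, and did not pass under median-ratio scaling (0.43, adjusted p = 0.0546). BBBPH against model gave -0.26 (95% interval -0.62 to 0.10, adjusted p = 0.284) and BBBPH against control 0.31 (95% interval -0.06 to 0.67, adjusted p = 0.191). A gene annotated on the other strand overlaps it.

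Ppp1r3c encodes another glycogen-targeting subunit of the same phosphatase, known as protein targeting to glycogen (chromosome 19, 36731731 to 36736653, minus strand, 2 exons). Control libraries had 2.97, 3.54, 5.65, 4.58 and 1.96 FPKM. Model libraries had 29.3, 9.31, 22.3, 16.9 and 34.1 FPKM and BBBPH libraries 41.6, 10.9, 9.92, 19.6 and 9.33 FPKM. All 10 libraries on the high-fat feed lay above all 5 control libraries, and BBBPH 2_1 was the highest of all. Ppp1r3c rose in model livers (log2 difference 2.23, SE 0.39, 95% interval 1.41 to 3.06, adjusted p = 0.000485), a ratio of means of 5.98 (exact p = 0.00794). It was higher in BBBPH than control (log2 difference 1.84, SE 0.39, 95% interval 1.02 to 2.67, adjusted p = 0.00368), a ratio of means of 4.88 (exact p = 0.00794), and by 1.50 (adjusted p = 0.00494) without BBBPH 2_1. In BBBPH against model the log2 difference was -0.39 (95% interval -1.21 to 0.43, adjusted p = 0.490). The Ppp1r3b to Ppp1r3c ratio was 5.81 to 15.1 in control libraries, above the 1.95 to 4.11 of model and the 0.890 to 5.69 of BBBPH libraries.

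**Figure D4:**
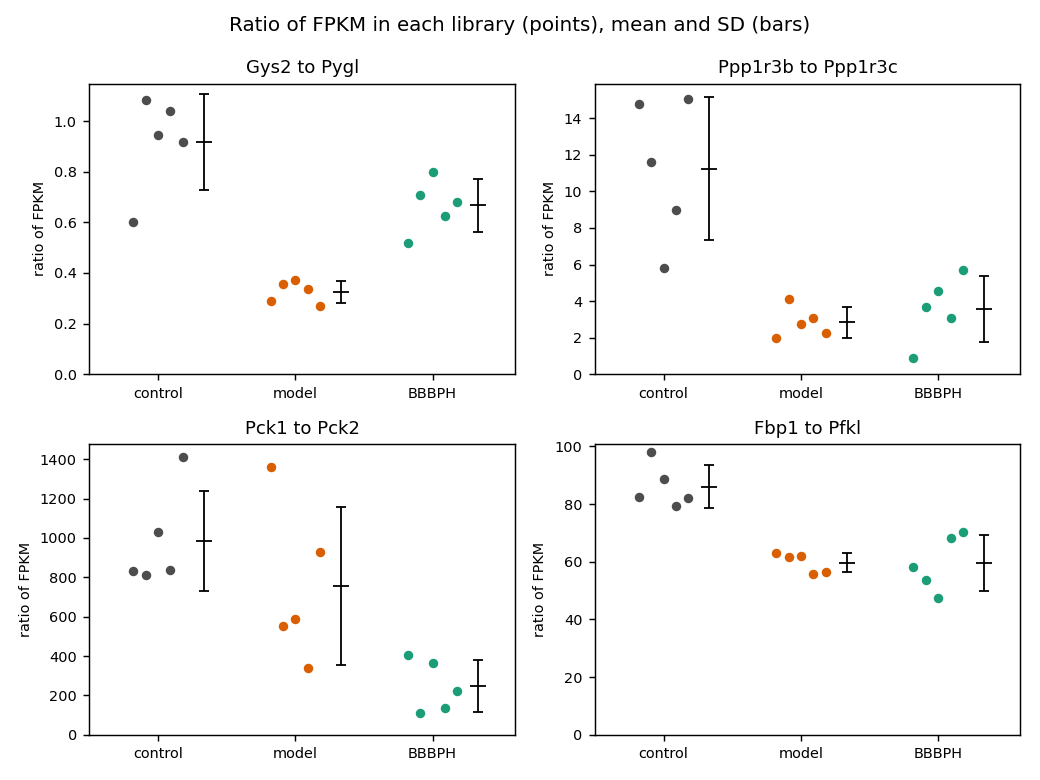
Ratio of FPKM within each library for Gys2 to Pygl, Ppp1r3b to Ppp1r3c, Pck1 to Pck2 and Fbp1 to Pfkl (vertical axes from 0), with points for libraries and bars for mean and SD. Model libraries lie below both other groups in the ratio of Gys2 to Pygl, and control libraries lie above both other groups in those of Ppp1r3b to Ppp1r3c and Fbp1 to Pfkl.

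Counts of members whose groups did not overlap were 3 in model against control (Pck1, Gys2 and Ppp1r3c), 2 in BBBPH against model (G6pc and Gys2) and 3 for BBBPH over control (G6pc, Pck1 and Ppp1r3c). Of all tested genes, 23.9% did not overlap in the first comparison (18.8% with model higher and 5.07% with model lower), 17.0% in the next (9.11% higher and 7.90% lower in BBBPH) and 17.5% in the last (15.3% and 2.22%). Among the members, G6pc and Gys2 were lower in model and higher again in BBBPH than model, and Pck1 and Ppp1r3c differed from control in the same direction in both groups on the high-fat feed. Fbp1, Gckr and Slc2a2 passed in none of the 3 comparisons, apart from the alternatives given above for Fbp1 and Slc2a2.

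Likeness of pattern was measured as the root mean square difference between profiles of log2(FPKM + 1), each centred and divided by its SD over the 15 libraries, against 5505 tested genes whose mean reached 5 FPKM. By that measure the nearest pair of members was Gckr and Slc2a2, at 0.490 SD, followed by Fbp1 and Slc2a2 at 0.664 and by G6pc and Gys2 at 0.668. Pck1 and Pygl were the farthest apart, at 1.81. Outside the set, the profiles nearest Gys2 included that of Cldn12 (0.235). Those nearest G6pc were Rbp4 (0.414), the plasma carrier of retinol, and Polr1d (0.422), and those nearest Ppp1r3c were Tjp3 (0.352) and Baiap2 (0.419). G6pc, Rbp4 and Polr1d each had their lowest value of the 15 libraries in model 1_4, which stood apart by Saa2. Pck1 lay nearest Cyp2f2 (0.520), a periportal cytochrome, and Ces2a (0.568). The nearest profiles were Adssl1 (0.425) and Cers2 (0.465) for Fbp1, Bri3 (0.469) and Vdac2 (0.471) for Gckr, and Fastk (0.396) and Slc25a11 (0.409) for Slc2a2. For Pygl they were Tmem205 (0.454) and Mto1 (0.460), and for Ppp1r3b Psmb7 (0.397) and Cfdp1 (0.404). The points share group, library and depth, so these values describe the libraries and carry no test.

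The list counts from here on stand beside the shares of all tested genes, and no list was tested against them. Those shares were 29.9% higher and 8.64% lower in model than control. They were 14.2% and 12.2% in BBBPH against model and 24.4% and 3.70% in BBBPH against control. Of 20 other tested genes of glucose synthesis and output, 4 rose and 1 fell in model livers, with a median difference of -0.07. Pcx, the pyruvate carboxylase that supplies oxaloacetate to Pck1, rose from 130.2 ± 10.7 to 185 ± 20.6 FPKM (log2 difference 0.50, adjusted p = 0.000527), and Gpd1, the glycerol 3-phosphate dehydrogenase through which glycerol enters, rose from 142 ± 18.8 to 268 ± 34.6 FPKM (log2 difference 0.91, adjusted p = 0.000227). In BBBPH against model 4 of the 20 rose (Pck2, Gpi1, Slc37a4 and Slc25a11) and 4 fell (Gpd1, Tat, Aqp9 and Pcx), with a median of 0.01. Gpd1 fell to 141 ± 29.9 FPKM (log2 difference -0.94, adjusted p = 0.000248), and Pcx fell (log2 difference -0.30, adjusted p = 0.0183). The Pcx call was lost without BBBPH 2_2 and model 1_4 (adjusted p = 0.0876) and without model 1_1 (adjusted p = 0.0502). Tat, the tyrosine aminotransferase known for induction by glucocorticoids and glucagon, had 393 ± 123 FPKM in control livers, 285 ± 96.2 in model and 128 ± 46.7 in BBBPH livers. Tat was lower in BBBPH than model (log2 difference -1.16, adjusted p = 0.00388) and than control (log2 difference -1.62, adjusted p = 0.000716). Against control, 2 of the 20 were higher in BBBPH and 4 lower, with a median of 0.13.

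Of 18 other tested glycogen genes, 2 rose and 1 fell in model livers (median 0.12), and in BBBPH against model 1 rose and 2 fell (median 0.03). The 1 that rose was Pygb (log2 difference 0.22, adjusted p = 0.0374), which passed in 13 of 27 alternative settings, replicate blocks aside. Ppp1ca, the phosphatase subunit that Ppp1r3b and Ppp1r3c target, rose in model livers (log2 difference 0.43, adjusted p = 3.96e-05) and fell in BBBPH against model (log2 difference -0.27, adjusted p = 0.00185). Phkb, a subunit of phosphorylase kinase, rose in model livers from a low mean of 1.79 to 2.66 FPKM (log2 difference 0.39, adjusted p = 0.000655). Stbd1, a glycogen-binding protein, fell in BBBPH against model (log2 difference -0.43, adjusted p = 0.0124). The branching enzyme Gbe1 (49.2 ± 9.46, 60.3 ± 11.7 and 64.9 ± 13.0 FPKM in control, model and BBBPH livers) passed in none of the comparisons. In BBBPH against control 5 were higher, among them Pygb, another phosphorylase (log2 difference 0.30, adjusted p = 0.00846), and Ppp1r3e, a further targeting subunit (log2 difference 0.50, adjusted p = 0.0108), and 1 was lower (median 0.12). Neither call held under quantile scaling (adjusted p = 0.167 for Pygb and 0.0734 for Ppp1r3e), and that of Pygb was also lost under median-ratio scaling (adjusted p = 0.0683). Both genes were low in level. Means in control, model and BBBPH livers were 1.62, 1.77 and 2.23 FPKM for Pygb and 2.21, 2.55 and 3.51 FPKM for Ppp1r3e.

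Of 19 glycolysis genes, 6 rose and 1 fell in model livers, 5 rose and 4 fell in BBBPH against model, and 8 were higher and 1 lower in BBBPH than control, with medians of 0.08, -0.0014 and 0.23. Pklr, the pyruvate kinase that opposes the Pck1 step, had 106 ± 40.5 FPKM in control livers, 64.8 ± 20.3 in model and 194 ± 64.3 in BBBPH livers. Pklr rose in BBBPH against model (log2 difference 1.56, adjusted p = 0.00164). Its difference from control, 0.92 (adjusted p = 0.0359), passed in 17 of 28 alternative settings, replicate blocks aside. Pfkfb3, a kinase that makes the activator of phosphofructokinase and inhibitor of Fbp1, fell in model livers (log2 difference -1.04, adjusted p = 0.00365) and was lower in BBBPH than control (log2 difference -1.69, adjusted p = 0.000385). Of 4 tested hexose transporters beside Slc2a2, Slc2a8 and Slc2a5 fell in model livers, with log2 differences of -0.36 (adjusted p = 0.00511) and -0.67 (adjusted p = 0.0164). Both rose in BBBPH against model, with 0.73 (adjusted p = 5.06e-05) and 0.80 (adjusted p = 0.00871). The fall of Slc2a5 in model livers did not pass without the 3 libraries that stood apart (adjusted p = 0.0541).

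Among 30 tested regulators of glucose production, 6 rose and 6 fell in model livers, 3 rose and 8 fell in BBBPH against model, and 6 were higher and 6 lower in BBBPH than control, with medians of -0.04, -0.02 and -0.08. Sik1, a cAMP-induced kinase that restrains gluconeogenic transcription, had 3.95 ± 1.78 FPKM in control livers, 1.20 ± 0.179 in model and 4.77 ± 1.80 in BBBPH livers. Sik1 fell in model livers (log2 difference -1.11, adjusted p = 0.000669) and rose in BBBPH against model (log2 difference 1.35, adjusted p = 0.000222). Prkaca, the catalytic subunit of protein kinase A, moved the other way, with 0.43 (adjusted p = 0.000161) in model against control and -0.39 (adjusted p = 0.000472) in BBBPH against model. Trib3, an inhibitor of the insulin-activated kinase Akt, rose in model livers (log2 difference 1.45, adjusted p = 1.47e-05), and Pde3b, which degrades cAMP under insulin, fell (log2 difference -0.56, adjusted p = 1.48e-05). Foxo1, the forkhead factor of insulin-sensitive transcription, fell in model livers (log2 difference -0.25, adjusted p = 0.0242), and the glucagon receptor Gcgr was higher in BBBPH than control (log2 difference 0.23, adjusted p = 0.0347). Those calls held in 24 and 19 of 28 alternative settings, replicate blocks aside. Ppargc1a, the coactivator of gluconeogenic genes, had a mean of 0.680, 0.570 and 0.606 FPKM in the control, model and BBBPH groups and was below the filter.

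Fasting and hormone targets outside the set did not move as 1 group. Of 13 tested, Sik1 and Tat among them, 1 rose and 2 fell in model livers, 4 rose and 2 fell in BBBPH against model, and 4 were higher and 4 lower in BBBPH than control, with medians of -0.27, 0.31 and -0.39. Igfbp1, a classic target repressed by insulin, had 49.2 ± 37.8 FPKM in control livers, 39.6 ± 43.7 in model and 32.1 ± 13.0 in BBBPH livers and passed in none of the comparisons.

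**Figure D5:**
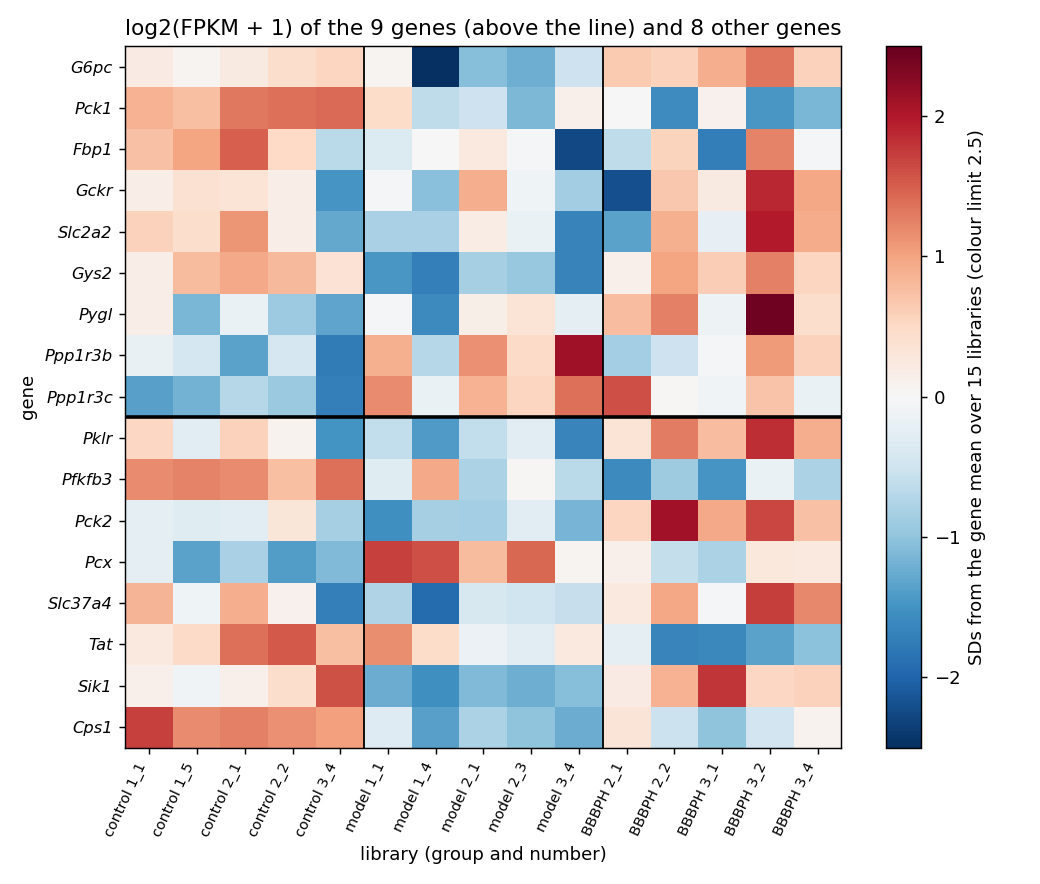
Profiles of the 9 genes (above the line) and 8 other glucose-related and zonation genes (below) across the 15 libraries; colour gives log2(FPKM + 1) as SDs from the mean of the gene over all libraries, limited to 2.5. Gys2 is blue in all 5 model libraries and G6pc in 4, both are red or near white in the BBBPH block, and Pck1 is reddest in control libraries.

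Clock, zonation and cell type genes moved with the same groups, and their part in the results above was not tested. Of 16 clock genes, 2 rose and 6 fell in model livers, and 8 rose and 4 fell in BBBPH against model. Pck1, G6pc and Fbp1 are known as periportal genes. Of 13 other periportal genes, 6 fell and 2 rose in model livers and 7 were lower in BBBPH than control, with medians of -0.49 and -0.53. Cps1 went from 802 ± 71.6 FPKM in control to 398 ± 53.3 in model and 488 ± 82.1 in BBBPH livers. Of 12 pericentral genes, 4 rose and 1 fell in model livers (median 0.27), with Glul at 421 ± 58.5, 720.2 ± 114 and 549 ± 44.2 FPKM in the control, model and BBBPH groups. Of the 9 hepatocyte markers, 4 fell in model livers (Cps1, Serpina1a, Alb and Apoa1), and the summed level of 11 stellate cell markers was 127 to 156 FPKM in control livers, 168 to 209 in model and 151 to 168 in BBBPH libraries. The summed levels were 334 to 432, 333 to 549 and 395 to 635 FPKM for 11 macrophage markers and 2.54 to 36.0, 12.3 to 79.5 and 6.54 to 126 FPKM for 6 neutrophil markers. Of 10 tested stellate cell markers, 9 rose in model livers and 5 fell in BBBPH against model. No marker of these lists was at 0 in all libraries.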

How the data were processed

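Total RNA of mouse liver was sequenced in 15 libraries. The values are FPKM as deposited, 1 column per library with no pooling, and the tools HISAT2, HTSeq, fastp and DESeq2 and the mm10 build stand in the submitters' processing notes without versions or roles. Strand setting, annotation and filters are not given in the sources used here. Groups came from the labels. The table lists 17527 genes, 17051 of them detected, and the 9575 whose mean reached 1 FPKM were tested on log2(FPKM + 1) with limma 3.58.1 (R 4.3.3) in 1 fit of 3 group means over all 15 libraries, with an eBayes trend. Benjamini-Hochberg adjustment of 2-sided p-values covered all tested genes of a comparison, and an adjusted p under 0.05 made a call. A fold change on this scale understates the change of low genes. Exact 2-sided permutation tests ran over 252 arrangements, with a smallest p of 0.00794.

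Fragments were recovered from the steps of the FPKM values for 15279 genes and gave the depths. A gene was kept only where its values above 0 came within 0.02 of whole numbers of fragments. The share of 100.0% within that tolerance among the kept genes is therefore no separate check. Positions are from GENCODE M21 on GRCm38, and promoter windows are from RefSeq on GRCm38.p6. The scripts were tested on simulated data and ran under Python 3.11.15 (pandas 2.3.3, numpy 2.4.6, matplotlib 3.10.9, scipy 1.17.1) and R with statmod 1.5.0. The members, the gene lists and the tests were chosen with earlier results of these data known.

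Named were all members, the 2 called genes with the smallest adjusted p per list and comparison, 14 preset genes of glucose metabolism, clock and zonation, and the 2 genes nearest each member in profile. Some genes so named are not reported here. The alternatives were other scalings, filters, pseudocounts, eBayes options, library weights, fits of 2 groups, replicate blocks, voom on recovered fragments and leaving out each library. Leaving out 2 or 3 libraries that stood apart was added after seeing the data.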

Additional observations from a re-analysis of the deposited data

Results flagged for a closer look

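In 13 of 156 sets of 5 libraries, which are 52 genes in 3 groups, 1 library lay far from the other 4. Independent sets would pass that threshold by chance about 1 time in 20, but these sets share the same 15 libraries. Of these sets, 6 were in control 3_4, and 2 were of members. Among the members, Fbp1 in model 3_4 was 496.9 FPKM beside 599.6 FPKM in the nearest model library, and Gckr in control 3_4 was 31.06 FPKM beside 41.28. Leaving out control 3_4 or model 3_4 changed no call of a member.

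Control 3_4 was also low in Gbe1, the branching enzyme (32.60 FPKM, nearest 51.24) and in the glutaminase Gls2 (121.0, nearest 147.0). It was high in Igfbp1 (116.4 FPKM, nearest 38.57), Sik1 (7.074, nearest 3.728) and Fgf21 (10.83, nearest 2.619). Model 1_1 was high in Igfbp1 (117.2 FPKM, nearest 25.99) and low in the hexokinase Hk1 (1.215, nearest 1.613). Model 1_4 was low in Slc37a4 (24.15 FPKM, nearest 36.38). BBBPH 3_1 was high in Fgf21 (90.12 FPKM, nearest 27.47) and BBBPH 3_2 in Prkaca (20.74, nearest 18.15). Control 1_5 was high in Ppargc1a (0.9784 FPKM, nearest 0.6325).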

How the results depend on the processing

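Across 30 alternatives, G6pc and Gys2 kept their calls in model against control and in BBBPH against model in all 30, and so did Ppp1r3c in model against control, with G6pc at -1.86 to -0.94 and 1.30 to 2.43 on the log2 scale. Under median-ratio scaling, members higher fell to 1 in model against control and to 1 in BBBPH against control. Fbp1 joined the members lower in both comparisons (adjusted p = 0.0132 and 0.0417 in limma's test), which came to 2 in BBBPH against control. The direction also turned, with no call on either side, for Gckr (-0.0600), Gys2 (-0.0945) and Slc2a2 (-0.0671) in BBBPH against control and Pygl (-0.0152) in model against control. Quantile scaling turned Gys2 in BBBPH against control to -0.0142. That these alternatives remove the shift of the median gene follows from their construction. With the replicate number as a block, members in BBBPH against control came to 0 higher and 0 lower (1 higher with the first digit as block). Of all 9575 tested genes, 2691 were called in that comparison in the main fit. That count was 1844 with the first digit as block and 185 with the replicate number as block. In the fit by replicate number, a library whose number no other library bears does not inform the comparison. Only the 10 libraries with a same-numbered partner do, so lost calls and turned signs there cannot be told apart from the loss of libraries. Under the block Pck1 no longer passed in model against control (adjusted p = 0.0694) or in BBBPH against control (adjusted p = 0.0505), Ppp1r3c in BBBPH against control had an adjusted p of 0.0700, and Gckr turned to 0.0972 in model against control and -0.0880 in BBBPH against model, and Gys2 to -0.0886 in BBBPH against control. The labels do not say what the replicate numbers stand for. Control and model libraries had first digits of 1, 2 and 3, whereas no BBBPH library had a first digit of 1. An effect tied to that digit could not be fully separated from dosing. Over all tested genes, residuals of the 8 same-numbered pairs correlated at -0.33 to 0.02. Of 10 libraries with a same-numbered partner, 0 correlated best with their own number. Pairing or a block that acts on some genes only was not tested. Leaving out each library gave 2 members higher and 3 lower in model against control, 2 to 3 higher and 0 lower in BBBPH against model, and 1 to 2 higher and 1 lower in BBBPH against control. Such omissions moved differences near 0 across it, with ranges of -0.0121 to 0.1066 for Fbp1 in BBBPH against model and -0.1195 to 0.0144 for Gckr in model against control, and in BBBPH against control -0.0315 to 0.165 for Gys2 and -0.0460 to 0.2529 for Slc2a2. Gckr in model against control was 0.0144 without 2 libraries and 0.0407 without 3. Causes of these shifts were not tested. A planned quasi-likelihood count test was not run, since the deposited unit is FPKM. Each member rested on 186 fragments or more per library. For G6pc in BBBPH against control, the spread shared by all 3 groups of 5 libraries gave an interval of -0.29 to 1.42. Limma's fit of those 2 groups alone gave an adjusted p of 0.0242 for it.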

Other observations

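Rhbg, an ammonium transporter of pericentral hepatocytes, had 2.12 ± 0.485 FPKM in control livers, 5.51 ± 0.922 in model and 1.59 ± 0.376 in BBBPH livers (SD, n = 5), rising in model livers (log2 difference 1.07, adjusted p = 3.70e-05) and falling in BBBPH against model (log2 difference -1.33, adjusted p = 9.97e-06). Oat, the pericentral ornithine aminotransferase, rose in model livers (log2 difference 0.78, adjusted p = 0.00486) and fell in BBBPH against model (log2 difference -1.30, adjusted p = 0.000187). Tbx3, a target of Wnt signalling, was higher in BBBPH than model (log2 difference 0.93, adjusted p = 0.00428) and than control (log2 difference 1.41, adjusted p = 0.000497), whereas Cyp2c29 was lower in BBBPH than control (log2 difference -1.10, adjusted p = 0.00365). Gls2, the periportal glutaminase, fell in model livers (log2 difference -0.89, adjusted p = 0.000347) and stayed lower than control in BBBPH livers (log2 difference -0.68, adjusted p = 0.00427). Cdh1, a periportal cadherin, fell in model livers (log2 difference -1.21, adjusted p = 0.000848) and rose in BBBPH against model (log2 difference 1.21, adjusted p = 0.00128), back to 6.40 ± 1.55 FPKM beside 6.35 ± 1.07 in control.

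Within the clock list, Cry2 fell in model livers (log2 difference -0.39, adjusted p = 0.00607) and rose in BBBPH against model (log2 difference 0.67, adjusted p = 0.000206), and Hlf was higher in BBBPH than control (log2 difference 0.50, adjusted p = 0.00537). Per2 fell in model livers (log2 difference -0.75, adjusted p = 0.000659), and Per1 was lower in BBBPH than control (log2 difference -0.87, adjusted p = 0.00311).

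Among fasting and insulin targets, Irs2, the insulin receptor substrate, fell in model livers (log2 difference -0.85, adjusted p = 0.0104). Cpt1a, the gate of mitochondrial fatty acid oxidation, rose in BBBPH against model (log2 difference 0.54, adjusted p = 0.000433), and the hormone Fgf21 was higher in BBBPH than control (log2 difference 2.76, adjusted p = 0.00148).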
